A study of Mus musculus with 4 samples.

Results

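The genes described here are 9 complement components and receptors: C1qa, C1qb, C1qc, C3, C4b, Cfb, Cfp, C3ar1 and C5ar1. They were chosen by symbol from 31253 genes counted in single mouse peritoneal cells. All 9 were found. Each was followed in macrophages, B cells and T cells, and in macrophages split by Timd4, Folr2 and Ccr2.

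Complement is a set of plasma proteins that tag microbes and dying cells for uptake. In the classical pathway, C1q, built from the chains of C1qa, C1qb and C1qc, binds a target and leads to cleavage of C4 and then of C3. The alternative pathway amplifies C3 cleavage through factor B (Cfb) and is stabilised by properdin (Cfp), while the small fragments C3a and C5a signal through receptors encoded by C3ar1 and C5ar1. Tissue macrophages are a main source of C1q, unlike most complement proteins of plasma, which come largely from the liver.

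The cells were positive for F4/80, the product of Adgre1 and a surface marker of macrophages, and were sorted from the peritoneal cavity of mice aged 24 weeks. The samples form 4 groups with 1 sample in each. They are C57BL/6 mice fed normal diet, Apoe-/- mice fed the same, Apoe-/- mice on a high-fat diet (HFD, 21% fat and 0.15% cholesterol for 20 weeks from 4 weeks of age), and Apoe-/- HFD mice given anti-CVI-mAb, a collagen VI antibody by the series' title, at 3 mg in 200 µL into the peritoneum. The other 3 groups were injected with 200 µL of PBS, and the HFD mice, stated to be male and of C57BL/6 background, were returned to a normal diet before treatment. The number of mice per sample is not stated there. Cell barcodes carried suffixes 1 to 4, taken as 4 libraries, and no label or file header ties a suffix to a group. Each value therefore belongs to a library of unknown group, no comparison of genotype, diet or antibody was made, and no p-value was computed.

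The macrophage gate (at least 2 Adgre1 UMIs and no Cd79a or Cd3e) held 1538, 4218, 4334 and 5017 cells of libraries 1 to 4, with median depths of 8218.5, 12506.5, 13951 and 12903 UMIs (molecular identifiers, each counting 1 captured transcript). B cells (at least 3 Cd79a UMIs, no Adgre1) numbered 586, 576, 311 and 281. T cells (at least 2 UMIs of Cd3d, Cd3e and Cd3g together, no Adgre1) numbered 116, 104, 158 and 139. Both classes lacked Adgre1 UMIs although the cells were sorted for its product. How they passed the sort was not tested, and they may not represent peritoneal lymphocytes at large. In the macrophage gate, 7 of 8 macrophage markers reached 20 CPM (UMIs of a gene scaled to a total of 1e+06) in every library, and the other, Fcgr1, was at 14.9 CPM in library 1. The summed markers of mesothelial and stromal cells stayed at 0.175 to 0.528 CPM, with Lum and Pdgfra at 0. Neutrophil markers summed to 145, 124, 133 and 108 CPM. B cell markers summed to 147, 19.0, 8.16 and 7.12 CPM, and mast cell markers to 63.0, 2.46, 5.81 and 4.49 CPM, both highest in library 1. Library 1 stood apart. The mitochondrial limit removed 1936 of its 6254 barcodes, against 296 to 495 in the others, and its macrophages had a median mitochondrial share of 5.16%, against 3.63 to 4.24%. Between 6 and 12 barcodes were shared by any pair of libraries. Apoe, the gene inactivated in 3 of the groups, was at 30.1, 863, 738 and 29778 CPM in macrophages. Library 4 was far above the others, and no library was assigned to a genotype from this value.

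The 3 C1q genes lie side by side on chromosome 4 of GRCm38 (GENCODE M21), all on the minus strand. C1qb spans 136880129 to 136886187, C1qc 136889804 to 136893065 and C1qa 136895917 to 136898803, with gaps of 3616 and 2851 bases and no other annotated gene between them. Promoter sequences from RefSeq (GRCm38.p6, 250 bases before to 50 after the start) matched 6 of the 9 genes, but not C1qa, C4b or Cfb. Those of C1qb and C1qc are shown as the C1q genes with a match. Without C1qa, nothing is read from them about the ratio of C1qb to C1qa that follows. Each is printed 5′ to 3′ on the minus strand, up to the outermost annotated start. Capitals mark TGCTGA, the core of the recognition site of MAF factors, and GAGGAA, the core bound by the macrophage factor PU.1, on either strand. C1qb is shown for chr4:136886201-136886450 and C1qc for chr4:136893066-136893164.
C1qb: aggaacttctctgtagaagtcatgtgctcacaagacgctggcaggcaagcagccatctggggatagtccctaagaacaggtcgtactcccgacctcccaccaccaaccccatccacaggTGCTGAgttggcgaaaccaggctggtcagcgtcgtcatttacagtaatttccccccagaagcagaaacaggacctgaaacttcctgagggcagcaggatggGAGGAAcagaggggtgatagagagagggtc
C1qc: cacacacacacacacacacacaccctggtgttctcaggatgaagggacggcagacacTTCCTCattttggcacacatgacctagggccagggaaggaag
Over the 300-base windows, C1qb held 1 MAF core and 1 PU.1 core, and C1qc 1 PU.1 core and no MAF core. Among 32851 promoters of the same length, 19.5% held a MAF core and 28.3% a PU.1 core, so both are common. C3, C3ar1 and C5ar1 held 1 MAF core each and Cfp 2 PU.1 cores. These are matches of letters and show no binding.

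All 9 genes were higher in macrophages. A gene was called by a rule of size: 20 CPM or more where it was higher, and a log2 ratio beyond 1 in a common direction in libraries 1 to 4. In macrophages against B cells, 9 of 9 passed the rule of size, where 16.1% of 5368 genes passed in that direction. Against T cells, 9 of 9 passed, where 13.9% of 5540 genes did. The median log2 ratio over B cells ran from 4.22 for Cfb to 5.54 for C3ar1, and over T cells from 3.89 for Cfb to 4.79 for C1qa, while the median over all genes was 0.01 and -0.19. Levels of different genes are not ranked, because how fully the transcripts of each gene were captured was not measured.

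C1qa, the A chain of C1q, was at 4869.6, 4259, 5191 and 4730.1 CPM in macrophages of libraries 1 to 4. C1qb, the B chain, was at 3196, 5028, 5390.0 and 4769.7 CPM. C1qc, the C chain, was at 3189.9, 3031, 3786 and 3264 CPM. The A and C chains stayed within 1.22-fold and 1.25-fold over the libraries, closer together than 89.9% and 87.8% of 6300 genes. C1qb was 1.69-fold apart, with library 1 lowest, and 50.4% of genes were at least as far apart. Detection was near complete: after each cell was thinned to 3000 UMIs, which left out shallower cells, 98.3, 99.1, 99.5 and 99.0% of macrophages carried all 3 chains. In B cells, 3.13, 3.80, 2.27 and 2.72% did (exact 95% intervals within 0.839 to 5.75%), and in T cells 7.55, 7.14, 3.05 and 3.36%.

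The lymphocyte counts were set beside those of other macrophage genes. B cells held 2.15 to 5.38% of the macrophage level of the 9 genes (median over libraries), and T cells 3.65 to 6.95%. Macrophage marker genes outside the list lay in overlapping ranges, from 0.764 to 6.82% in B cells and 0.890 to 5.57% in T cells. In T cells, the medians of C4b at 6.54% and Cfb at 6.95% lay above the highest of these markers, Fcer1g at 5.57%. This did not hold in every library. Cfb rested on 4, 6, 4 and 2 UMIs, at 5.17, 12.8, 8.73 and 3.49%. C4b was at 6.44, 9.75, 6.63 and 5.07%, and Fcer1g at 5.27, 11.6, 5.87 and 4.46%. Free RNA was not measured directly, and no expression in lymphocytes is read from these shares. T cells of library 1 also held B cell markers at 3664 CPM, against 879 to 939 CPM in the others, and their part in these values was not tested.

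**Figure D1:**
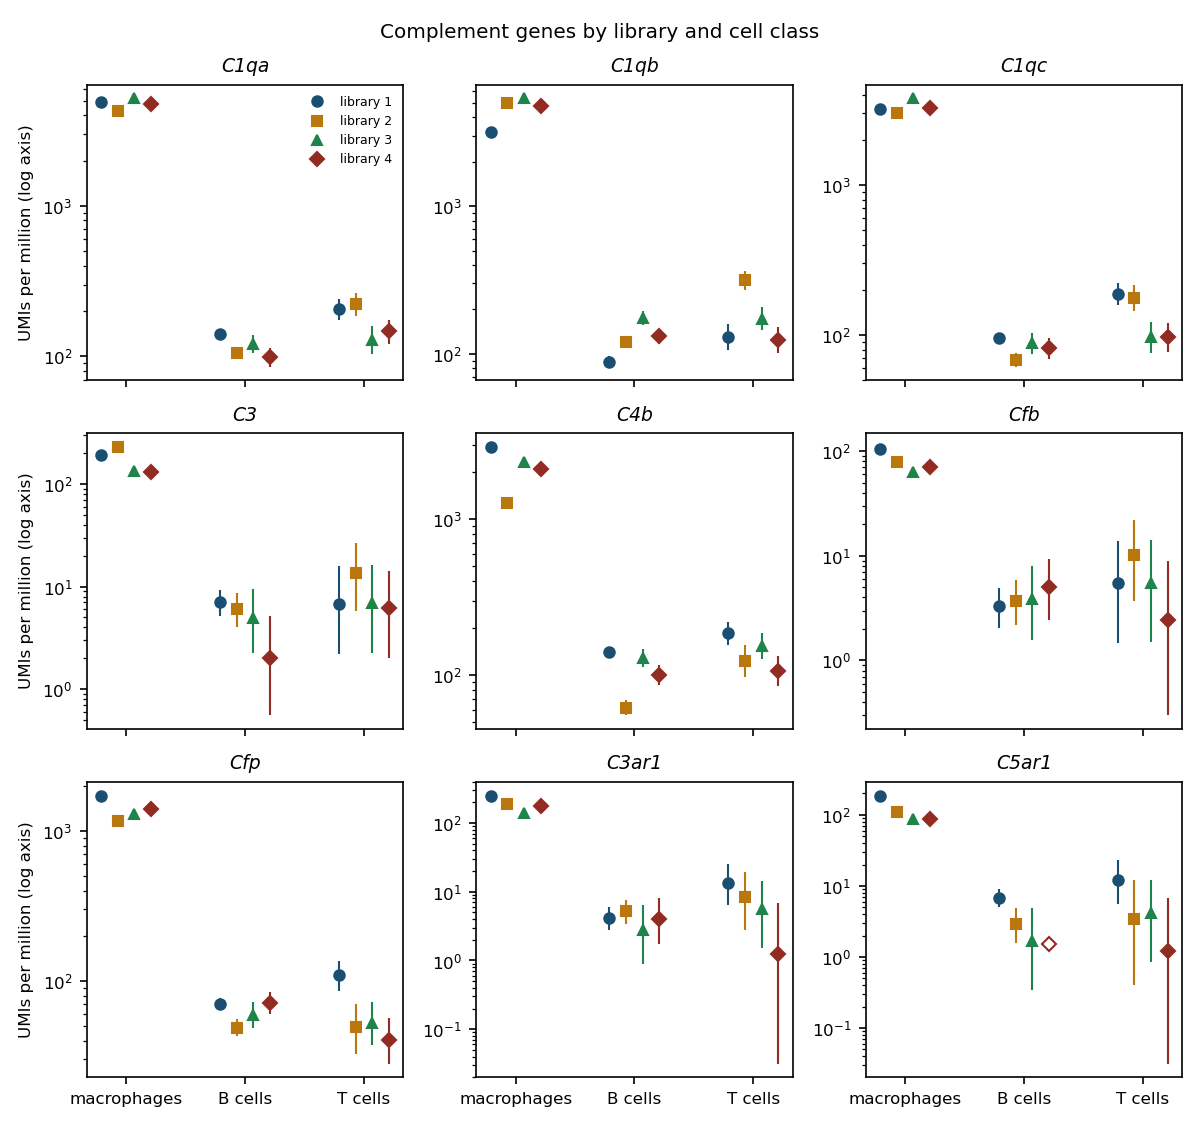
Level of each complement gene in macrophages, B cells and T cells, in CPM on a log axis that differs between panels. Points are libraries 1 to 4 with exact 95% Poisson intervals that cover counting error only, and the open point is a value of 0 drawn at the limit of 3 counts. Macrophages lie above both lymphocyte classes for every gene.

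C3 encodes the component on which all pathways converge. In macrophages it was at 192, 229, 135 and 132 CPM, and 39.6, 45.9, 30.1 and 31.4% of thinned cells had a UMI (64.6, 84.4, 71.9 and 72.1% without thinning). Libraries 1 and 2 were higher than libraries 3 and 4, whose intervals of 132 to 137 and 129 to 135 CPM overlapped. In B cells C3 was at 7.02, 6.00, 4.96 and 2.03 CPM, with a UMI in 3.65, 1.99, 0.758 and 0.778% of thinned cells.

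C4b encodes complement C4, cleaved after C1q binds. It stood at 2894, 1264, 2323 and 2111 CPM in macrophages, and a UMI was found in 90.9, 74.9, 93.1 and 92.0% of thinned cells (87.5 to 98.0% without thinning). Library 2 was lowest on both measures, and libraries 1, 3 and 4 lay above it without overlap of their intervals. C4b has a near-identical copy, C4a, not analysed here, and the counting of reads common to both is not stated, so its level is uncertain.

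Cfb, factor B, was at 105, 79.3, 63.7 and 70.6 CPM, with a UMI in 26.6, 21.3, 17.2 and 18.5% of thinned macrophages (51.4 to 55.8% without thinning). It overlaps a same-strand protein-coding model, Gm20547, so reads could be split between them. Cfp, properdin, was detected in 98.5, 94.9, 96.1 and 97.1% of thinned macrophages, at 1714, 1163, 1294 and 1411 CPM. Both were highest in library 1.

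The receptors were found in under 50% of thinned macrophages, and without thinning in 77.4 to 85.1% for C3ar1 and 60.8 to 71.1% for C5ar1. C3ar1, the C3a receptor, was at 247, 191, 139 and 176 CPM, in 49.2, 43.8, 33.8 and 40.8% of cells. C5ar1, the C5a receptor, was at 182, 108, 88.1 and 87.8 CPM, in 38.7, 27.4, 22.4 and 22.9%. Library 1 was highest for both, and libraries 3 and 4 had overlapping intervals for C5ar1. In B cells of library 4 no C5ar1 UMI was counted, which allows up to 1.52 CPM, and in T cells of that library each receptor had 1 UMI.

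Between libraries, 2 of the 9 genes were at least 2-fold apart in macrophages, C4b at 2.29-fold and C5ar1 at 2.08-fold, where 30.7% of 6300 genes were. That count is near the background. Without library 1 none of the 9 was 2-fold apart, and 226 of 5449 genes were, so the count fell over all genes too. Without library 2, C5ar1 remained as the 1 member, where 1737 of 6223 genes were 2-fold apart. The next widest were C3ar1 at 1.78-fold and C3 at 1.74-fold, near the median of 1.69-fold over all genes.

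The proportion of the C1q chains set library 1 apart. For each C1qa UMI, macrophages held 0.656, 1.18, 1.04 and 1.01 C1qb UMIs, with intervals of 0.648 to 0.664 in library 1 and 1.00 to 1.19 over the others. For C1qc the same ratio was 0.655, 0.712, 0.729 and 0.690, a narrower range. Both genes come from the same cells, so the ratio does not depend on the total depth used for scaling. Cell by cell, among macrophages with at least 20 UMIs of C1qa and C1qb together, the median share of C1qb was 38.2, 53.7, 51.1 and 50%, and C1qb exceeded C1qa in 8.68, 67.7, 55.5 and 49.5% of cells.

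Library 1 was lowest in every macrophage set. The C1qb to C1qa ratio was 0.577, 1.09, 1.03 and 0.994 in Timd4-high cells, 0.655, 1.09, 0.990 and 0.988 in Folr2-high cells, and 0.785, 1.19, 1.14 and 1.18 in Ccr2-high cells. Within each library the Ccr2-high set had the highest of these 3 ratios. In B cells the ratio was 0.635, 1.15, 1.46 and 1.34, so library 1 was lowest there too.

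The ratio also moved with the mitochondrial share of a cell. In macrophages with up to 2.5% mitochondrial UMIs it was 0.795, 1.24, 1.05 and 1.06. At 5 to 10% it was 0.592, 0.942, 0.960 and 0.948, and in barcodes at 10 to 20%, which the filter removed, 0.423, 0.669, 0.817 and 0.738. Library 1 was lowest within each of these bands. It moved with depth too. Below 8000 UMIs the ratio was 0.520, 0.887, 0.913 and 0.888, at 8000 to 16000 UMIs 0.712, 1.17, 1.03 and 1.00, and above that 0.793, 1.25, 1.06 and 1.03. It was higher in each deeper band in all 4 libraries, and library 1, the shallowest, was lowest within each band.

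**Figure D2:**
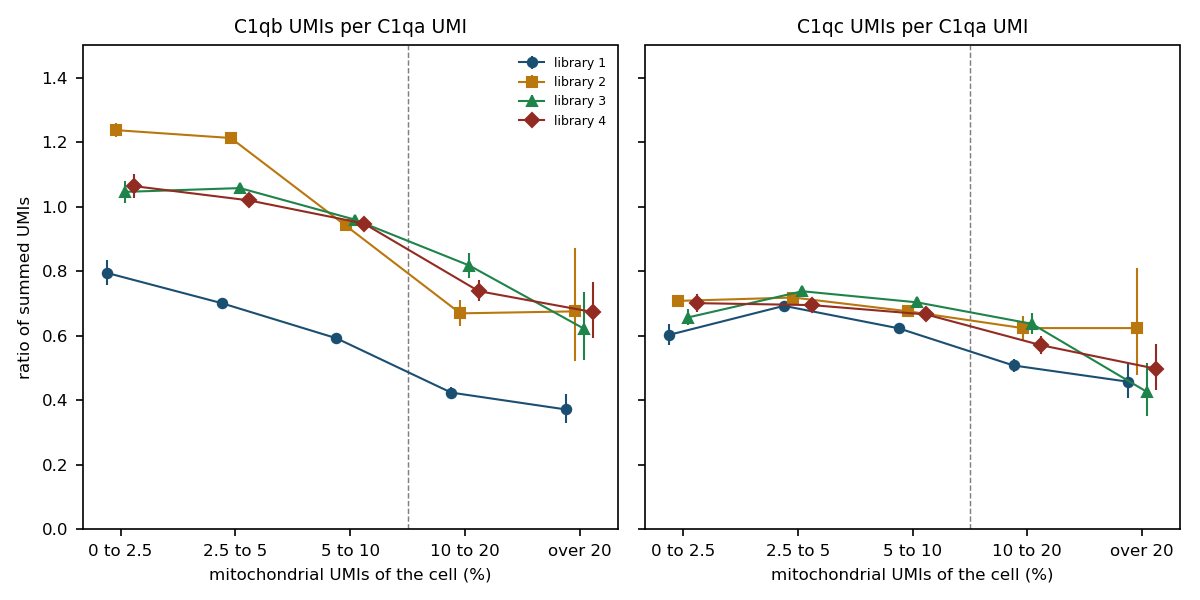
UMIs of C1qb (left) and C1qc (right) per C1qa UMI in macrophages, by the mitochondrial share of the cell, for libraries 1 to 4 with 95% intervals of the ratio. The dashed line marks the limit of 10%, to the right of which barcodes were left out of every other value. The C1qb ratio of library 1 lies below those of the other libraries in each band, while the C1qc ratios lie closer together.

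Other members moved with the mitochondrial share as well. From the band of up to 2.5% to that of 5 to 10%, C4b went from 1392, 1078, 2083 and 1543 CPM to 3262, 1626, 2296 and 2519 CPM. Cfb went from 48.2, 56.99, 54.0 and 46.4 CPM to 124, 109, 70.4 and 87.3 CPM. Both were higher in the upper band in 4 of 4 libraries, whereas C5ar1, at 179, 99.9, 117 and 92.7 against 186, 120, 98.9 and 86.1 CPM, was not. Among cells of up to 2.5%, which numbered 93, 397, 94 and 110, no member was 2-fold apart between libraries, while 2252 of 6397 genes were. The part of the mitochondrial share in the differences between libraries was not tested.

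The 3 splits read macrophage subsets within single libraries, so no group label is needed. Timd4, a phosphatidylserine receptor, marks long-resident cells, and Ccr2, a chemokine receptor, marks cells of recent monocyte origin. Folr2 encodes folate receptor beta. In Folr2-high cells, markers of large peritoneal macrophages summed to 4301, 4957, 5938 and 5619 CPM, against 5192, 6010, 8689 and 8524 CPM in all macrophages. Markers of small or monocyte-derived macrophages summed to 16734.5, 12240, 10459 and 12560 CPM, against 16125, 13322, 3630 and 5973 CPM. No origin is read for the Folr2-high set. Timd4-high cells (at least 3 UMIs) numbered 122, 541, 2069 and 2655, Folr2-high cells (at least 2) 854, 952, 321 and 303, and Ccr2-high cells (at least 3) 169, 801, 144 and 285. Cells could pass several gates. A gate on UMIs favours deeper cells, and median depths were 8846, 14372, 14754 and 13752 UMIs in Timd4-high, 9124.5, 13885, 15178 and 15424 in Folr2-high, and 10800, 12563, 15198.5 and 13640 in Ccr2-high cells.

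In Timd4-high against other macrophages, 0 of 9 members passed the rule of size as higher, where 0.0639% of 4692 genes passed, and 0 of 9 as lower, where 0.0853% did. C1qc, C4b and Cfb were higher in all 4 libraries, where 23.5% of genes were, and Cfp was lower in all 4, where 12.5% were. C4b was at 3415, 1846, 2631 and 2358 CPM in Timd4-high cells and at 2846, 1162, 1997 and 1782 CPM in the others, log2 ratios of 0.26, 0.67, 0.40 and 0.40. Cfb had ratios of 0.01 (-0.27 to 0.28), 0.45, 0.58 and 0.46, so its sign in library 1 lies within counting error. The Cfp ratios were small, at -0.01, -0.06, -0.10 and -0.06, and the median ratio of the 9 members was 0.05 against 0.03 over all genes.

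In Folr2-high against other macrophages, 0 of 9 passed as higher, where 0.103% of 4839 genes did, and 0 of 9 as lower, where 0.062% did. The C1q chains, Cfp, C3ar1 and C5ar1 were higher in all 4 libraries, 6 of 9, where 43.8% of genes were. C4b and Cfb were lower in all 4, 2 of 9, where 8.99% were. C5ar1 had ratios of 0.33, 0.36, 0.63 and 0.65, C3ar1 0.17, 0.23, 0.46 and 0.31, and C1qa 0.42, 0.20, 0.25 and 0.37. C4b went the other way, at -0.18, -0.44, -0.73 and -0.65, while Cfb, at -0.02, -0.17, -0.05 and -0.03, had intervals that include 0 in libraries 1, 3 and 4. The median over members was 0.19 against 0.12 over all genes.

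In Ccr2-high against other macrophages, 0 of 9 passed as higher, where 0.123% of 4882 genes did, and 0 of 9 as lower, where 0.246% did. C1qc, C4b and Cfb were lower in all 4 libraries, 3 of 9, where 12.5% were, and 0 of 9 were higher in all 4, where 23.5% were. C4b had log2 ratios of -0.91, -0.33, -1.20 and -1.41 and Cfb -1.02 (-1.32 to -0.73), -0.56 (-0.68 to -0.44), -1.05 (-1.40 to -0.72) and -0.92 (-1.16 to -0.70). Their medians, -1.06 and -0.97, were the lowest of the 9, and library 2 had the ratio nearest 0 for both. C4b fell short of 1 in libraries 1 and 2, and Cfb in libraries 2 and 4. C1qc had -0.29, -0.07, -0.48 and -0.45, while C1qb had no common sign, at 0.18, 0.02, -0.21 and -0.13. C3 was lower in libraries 1 and 2, at -0.75 and -0.24, and higher in libraries 3 and 4, at 0.39 and 0.12.

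**Figure D3:**
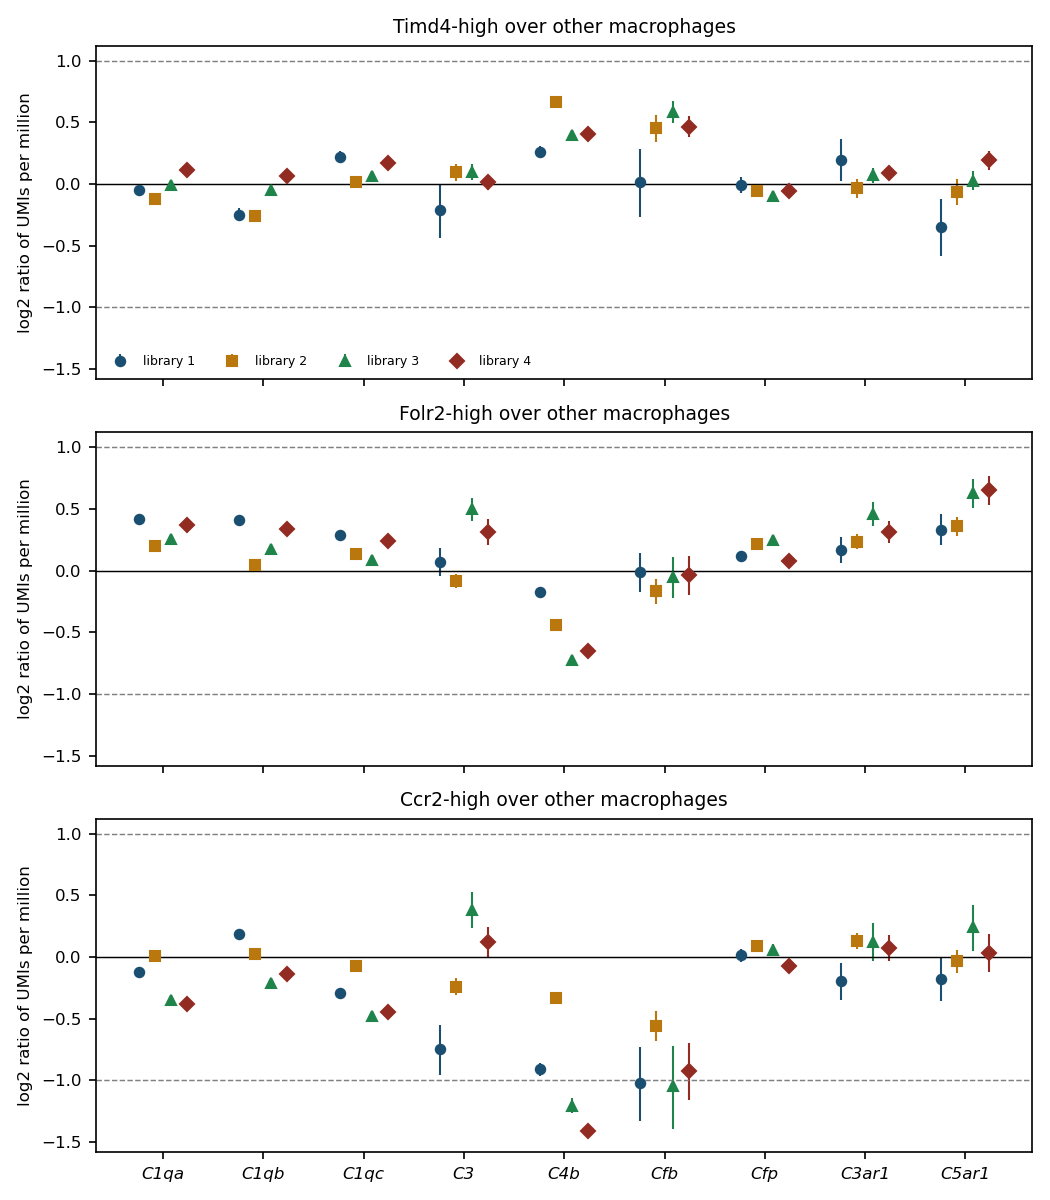
Log2 ratio of CPM in Timd4-high, Folr2-high and Ccr2-high macrophages over the other macrophages of the same library, for the 9 complement genes. Points are libraries 1 to 4 with 95% intervals of counting error, and dashed lines mark the 2-fold rule. C4b lies above 0 in every library in the Timd4 split and below 0 in the Folr2 and Ccr2 splits.

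Joint detection of the C1q chains was also less complete in Ccr2-high cells. All 3 chains were found in 90.4, 98.2, 93.8 and 92.6% of thinned Ccr2-high macrophages, against 99.2, 99.8, 99.9 and 99.6% of Timd4-high cells. The exact intervals of both sets did not overlap in libraries 1, 3 and 4, and in library 2 they did (97.1 to 99.0% against 99.0% and above). Summed markers of dendritic cells, another type that carries Ccr2, were lowest in library 2, in Ccr2-high cells and in all macrophages. The 7 listed summed to 20.6, 2.73, 20.5 and 19.8 CPM in Ccr2-high cells, against 7.24, 1.55, 2.27 and 2.66 CPM in all macrophages, with 0 of 7 at 20 CPM and none at 0 in every library. Cd209a, a lectin of monocyte-derived cells, was at 23.3, 3.82, 25.5 and 50.7 CPM there, and at 58.4 CPM in Timd4-high cells of library 1. Of the other listed markers of small or monocyte-derived macrophages, Clec10a and Retnla were also lowest in library 2 among Ccr2-high cells. Cd74, H2-Aa, H2-Ab1 and Irf4 were not, with Cd74 at 9077 CPM in library 2 and 7611 CPM in library 3. In all macrophages, Cd209a and Clec10a were lowest in library 2 too, at 1.30 and 32.5 CPM, while Retnla was lowest in library 4. The part of dendritic cells in the C1q, C4b and Cfb values of Ccr2-high cells was not tested. Cells with no C1q UMI at all were few, 1, 3, 0 and 3 in the Ccr2-high sets.

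Because cells can pass several gates, sets that passed exactly 1 gate were set beside macrophages that passed none. C4b was at 4048, 2176, 2723 and 2420.0 CPM in Timd4-only cells and at 3426, 1257, 2145 and 1992 CPM in cells of no gate. It was at 2849, 1018, 1383 and 1227 CPM in Folr2-only and at 1290.2, 1123, 809 and 741 CPM in Ccr2-only cells. The order Timd4-only, no gate, Folr2-only, Ccr2-only held in libraries 1, 3 and 4, and in library 2 Folr2-only was lowest. Ccr2-only cells over cells of no gate gave C4b ratios of -1.41, -0.16, -1.41 and -1.43, with library 2 nearest 0. Cfb in Ccr2-only cells was at 43.3, 57.5, 27.8 and 35.4 CPM, the lowest of the 4 sets in each library.

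**Figure D4:**
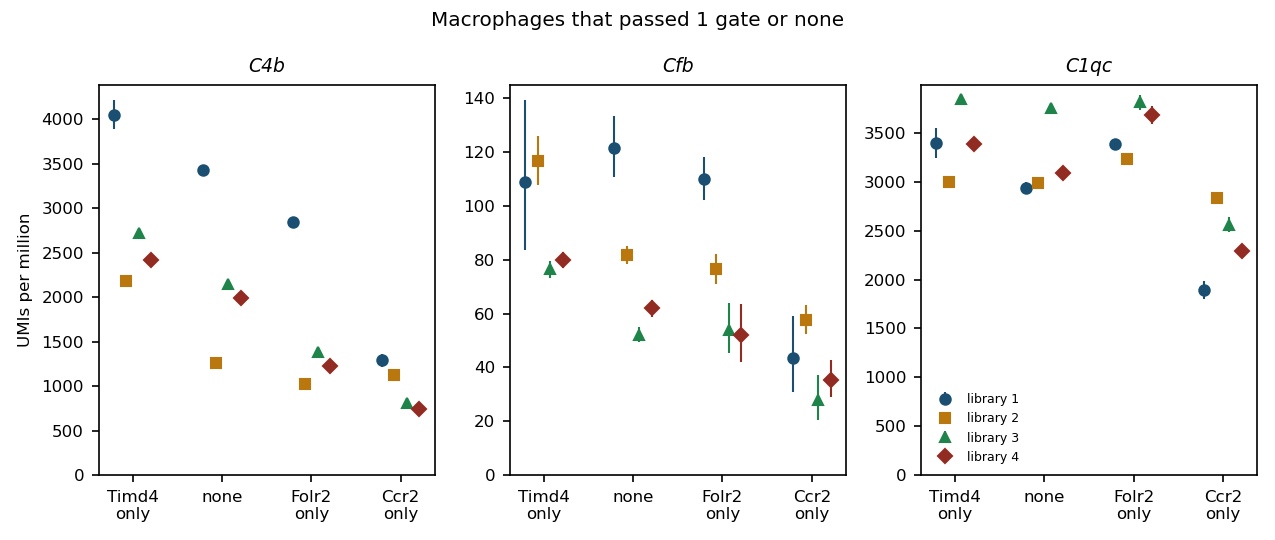
C4b, Cfb and C1qc in macrophages that passed 1 gate or none, in CPM from 0, for libraries 1 to 4 with exact 95% Poisson intervals. C4b steps down from Timd4-only to Ccr2-only cells in libraries 1, 3 and 4, and Cfb and C1qc are lowest in Ccr2-only cells.

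Among single macrophages, C4b and C1qa were both unevenly spread. The variance of C4b over its mean in thinned cells was 4.60, 4.45, 3.52 and 3.52. For C1qa it was 2.78, 2.78, 3.68 and 3.63, where counting alone would give 1. Mean UMIs differed, at 8.88, 4.15, 7.20 and 6.83 for C4b and 14.8, 12.8, 15.6 and 14.0 for C1qa, so these genes are not ranked by spread. For C3 the ratio was 1.38, 1.42, 1.40 and 1.46, and the 10% of cells with most UMIs held 43.7, 40.7, 51.2 and 49.6% of its UMIs. At under 1 UMI per thinned cell on average, C3, Cfb and the receptors allow little to be read from single cells.

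The genes whose counts ran most alike across macrophages were ranked by the median over libraries of Pearson's r, across cells that share a library, among 2775 genes. For the summed C1q chains they were Lyz2 (0.28), the gene of lysozyme, Ifitm3 (0.26), Wfdc17 (0.26), Pf4 (0.25) and Itm2b (0.21). For C4b they were Prg4 (0.31), which encodes lubricin and is a marker of large peritoneal macrophages, Saa3 (0.28), an acute-phase serum amyloid gene, Ecm1 (0.24) and Tgfb2 (0.22). Saa3 and C4b also came first for Cfb, at 0.12 each, followed by Prg4, Ecm1 and Malat1 at 0.07 to 0.09. For C3 they were Saa3 (0.12), Lars2, H2-K1, C4b and Hp, and for Cfp Lyz2 (0.15), C1qa, Fcna, Pltp and Cst3. Ctsb, Psap, Selenop and Maf were among the first for C3ar1, and Maf, Ctsb, Ccl9, Fcna and Ccl6 for C5ar1, all under 0.10. Such low values in sparse counts are no finding.

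Of 46 other complement genes, 13 reached 20 CPM in macrophages, B cells or T cells of a library, 11 of them in macrophages. All 7 genes of the terminal pathway stayed under it, 5 of them with no UMI in macrophages. Fcna, a ficolin that starts the lectin pathway, was at 2634, 486, 806 and 813 CPM in macrophages, 5.42-fold apart. C1ra, a protease partner of C1q, was at 19.8, 43.3, 37.6 and 40.6 CPM.

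Vsig4, a macrophage receptor for C3b, was at 240, 48.6, 380 and 306 CPM and was the 1 gene among these that passed the rule of size in the Timd4, Folr2 or Ccr2 split. In Ccr2-high cells its log2 ratio was -2.35, -1.99, -2.35 and -3.31, and in Timd4-high cells 2.60, 2.99, 0.96 and 1.24, where library 3 kept it from the rule. Fcna had ratios of 1.43, 1.44, 1.43 and 0.98 in Folr2-high cells, and in Folr2-only cells over cells of no gate it passed the rule, at 1.25, 1.54, 1.53 and 1.12. Itgam and Itgb2, which form complement receptor 3, were at 984 to 1296 and 609 to 817 CPM in macrophages. Cd93, Lrp1, Lair1 and C1qbp, reported to bind C1q or related ligands, ranged from 202 to 563, 321 to 381, 27.5 to 58.9 and 48.0 to 83.6 CPM.

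Of these genes, Cd55 was called lower in macrophages than in B cells and in T cells. Cd55, decay-accelerating factor, was at 205, 172, 228 and 241 CPM in B cells and at 5.56 to 12.0 CPM in macrophages. Cr2, complement receptor 2, was at 17.3, 11.4, 22.6 and 23.9 CPM in B cells and under 1 CPM in macrophages. Cr1l, the membrane regulator Crry, was alike in all classes, at 101 to 109 CPM in macrophages, 79.2 to 91.5 in B cells and 69.4 to 106 in T cells.

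**Figure D5:**
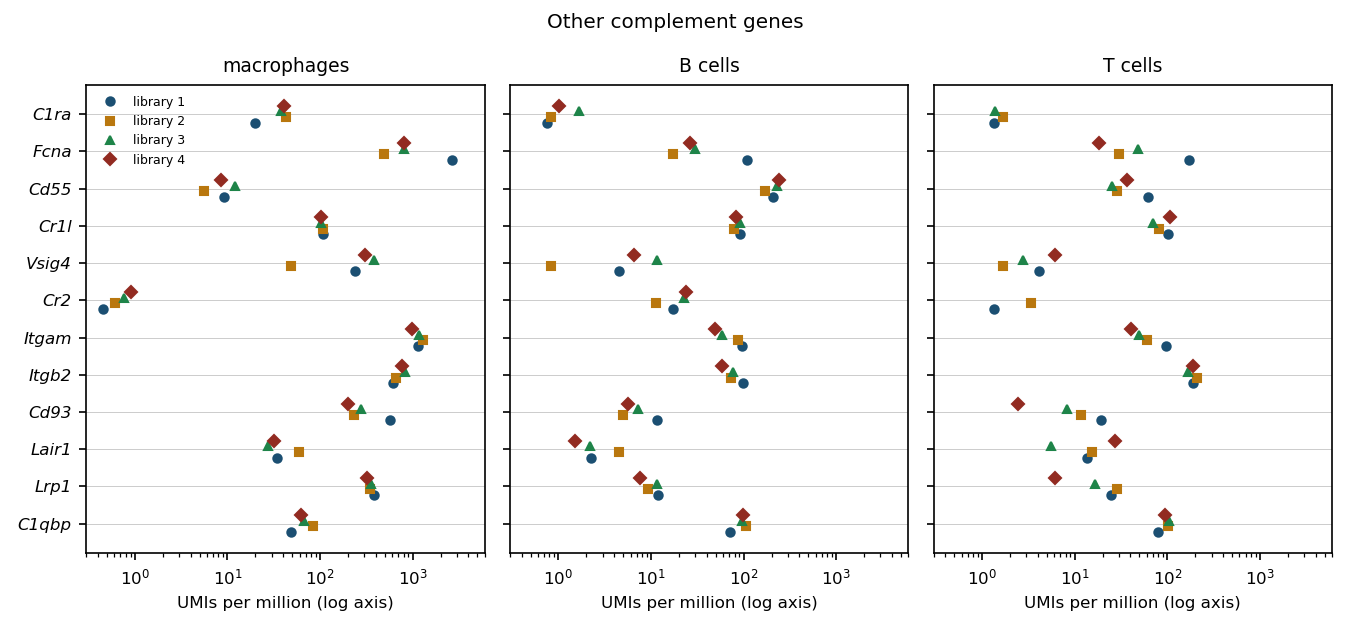
The other complement genes that reached 20 CPM in a class, soluble regulators left out, in macrophages, B cells and T cells on log axes, with 1 point per library and values of 0 not drawn. Cd55 and Cr2 are higher in B cells than in macrophages, and Cr1l is at like levels in all 3 classes.

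The remaining members lie elsewhere on GRCm38, all on the minus strand and protein-coding. C4b spans 34728380 to 34743882, Cfb 34856374 to 34862518 and C3 57203970 to 57228136 of chromosome 17. Cfp spans 20925454 to 20931555 of chromosome X, C3ar1 122847138 to 122856161 of chromosome 6 and C5ar1 16246743 to 16259540 of chromosome 7.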

How the data were processed

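The counts deposited by the authors are whole UMIs per gene and cell in a single matrix, whose header names Cell Ranger 5.0.1. CASAVA 1.8, Seurat and the build mm10 come from the submitters' processing notes. No annotation and no removal of free RNA is stated. Barcodes with at least 500 genes and at most 10% mitochondrial UMIs were kept, 20864 of 26811. Libraries held 40321459 to 78083803 UMIs. No doublet caller was run. The macrophage gate excludes cells with Cd79a or Cd3e, 27 cells passed both lymphocyte gates, and an alternative left out cells above 2 times the median depth. UMIs were summed per set and library and scaled to CPM. Ratios used a prior count of 0.5. Intervals are exact Poisson or Clopper-Pearson at 95%, and limits for 0 use 3 counts; both cover counting error only. The call rule and thinning were tested on simulated data. Named genes were all members, other complement genes at 20 CPM in a class, and the 5 genes most alike per member, with a UMI in 10% of macrophages; some of these genes are not reported here. Members and lists were chosen with earlier results of these data known. Python 3.11.15, numpy 2.4.6, scipy 1.17.1 and pandas 2.3.3 were used.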

Additional observations from a re-analysis of the deposited data

Results flagged for a closer look

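C3 stood out in cells outside the 3 classes, which no comparison uses. In library 1, 2 kept cells with at least 5 UMIs of the mesothelial and stromal markers, and no Adgre1 or Cd79a, held 146 C3 UMIs of 24625, or 5928.9 CPM (5006 to 6972). That was 31.0 times the level in macrophages of library 1, with 73 UMIs in each cell. The same cells held no UMI of C1qb, C3ar1 or C5ar1. No such cell was kept in libraries 2, 3 and 4, so the value rests on 2 cells of 1 library.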

How the results depend on the processing

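In each of 21 alternatives, 0 of 9 members passed the rule in the Timd4, Folr2 and Ccr2 splits. Few genes passed there at all, at most 39 higher and 30 lower of 4948, in the Ccr2 split without library 2. Against B and T cells all 9 passed in each of the 17 that bear on that comparison. As reported, 864 of 5368 and 768 of 5540 genes did so. The count of members 2-fold apart between libraries, 2 as reported, was less stable. Thinning to 3000 UMIs gave 1 (C4b), both after and before gating, where 2092 of 6314 and 2047 of 6299 genes were 2-fold apart. A fold of 1.5 gave 6, where 4113 of 6300 genes passed. Centring on the median of all genes kept 2, with C1qb in place of C5ar1, where 1312 of 6300 genes passed. Leaving out 1 library at a time gave 0 to 2, where from 226 of 5449 to 1774 of 6281 genes passed. There were 2 alternatives chosen after seeing the data. Cells of up to 2.5% mitochondrial UMIs gave 0, where 2252 of 6397 genes passed. Cells of 8000 to 16000 UMIs gave 1 (C5ar1), where 1800 of 6192 did. The cause was not tested. No called value reversed. Uncalled ratios moved in cells of up to 2.5% mitochondrial UMIs. In the Folr2 split the median log2 ratio of C4b went from -0.55 to -0.07, and that of Cfb from -0.04 to 0.12. The C4b median went from 0.40 to 0.90 in the Timd4 split and from -1.06 to -1.72 in the Ccr2 split. No paired analysis was possible because no library is tied to a sample and each group has 1 sample.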
